A study of Mus musculus with 4 samples.

Results

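A set of 5 genes that carry no classical antioxidant role, Sh2d6, Neat1, Slc22a12, Snx29 and Reep3, had some of the highest Nrf2 chromatin immunoprecipitation sequencing (ChIP-seq) peaks of the Keap1KO esophagus. These 5 are among the 1940 genes in the deposited table, and were picked by name for a very high peak height in the Keap1KO library, so that height is their selection and not a result. Mouse esophagus of strain C57BL/6 was profiled with an Nrf2 antibody in 3 genotypes: wild-type, Nrf2KO, taken here to lack the antibody's target and give its background, and Keap1KO. Each genotype has 1 library, so no test between genotypes was possible and no value has a replicate error. The sources used here state neither the age, sex and number of the animals nor how the knockout alleles were made. A pooled input library had no column and was not analysed here.

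Nrf2, encoded by Nfe2l2, is a transcription factor that pairs with small Maf proteins and binds antioxidant response elements, short DNA motifs with the core TGACNNNGC. Keap1 is the adaptor that holds Nrf2 and passes it on for ubiquitination and degradation, so loss of Keap1 stabilises Nrf2. In mice, loss of Keap1 is known for thickened, keratinised epithelium in the esophagus and forestomach. Its best studied targets make glutathione, thioredoxin and quinone-reducing enzymes, and none of the 5 genes belongs to these.

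The height is the authors' peak signal averaged over the active regions of a gene (called intervals merged between libraries), with no unit stated. Genes that list the same regions share 1 value, and counting each such set once gave 1460 loci. Over these the Nrf2KO median was 4.33, that of wild-type 5 and that of Keap1KO 18. How deeply each library was sequenced or scaled is unknown, so no counting error can be attached to a height. Nearly every locus was in the table because it was called in Keap1KO (99.2%), which selects Keap1KO heights upwards. The assay measures antibody signal on chromatin and holds no expression values, so neither the tissue nor the activity of these genes can be checked in it.

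Sh2d6 had the tallest of the 5 loci. It encodes a protein with an SH2 domain, a fold that binds phosphorylated tyrosine. Its height was 7 in Nrf2KO, 19 in wild-type and 136 in Keap1KO. By mean height over regions in Keap1KO it was exceeded by 2 of the 1460 loci, those of Txn1 (194), the gene of thioredoxin, and of Srxn1 (158), the gene of sulfiredoxin. Single regions at the loci of Gstp1 (156) and Txnrd1 (139) were taller too. The peak was called in wild-type at position 72512752 and in Keap1KO at 72512784 on chromosome 6 (mm10), 32 bp apart, and no other gene of the table listed it. These positions lay 7898 and 7866 bp from the listed gene start (GeneID 71130, minus strand, 72513652 to 72520650), past the gene's 3′ end by 900 and 868 bp. In RefSeq (GRCm38.p6, the assembly of mm10) the gene is 2.94 times as long, from 72513641 to 72534206, but its 3′ end is nearly the same and the Keap1KO interval was 857 bp beyond it. The next RefSeq gene on that side, Particl, was 72169 bp away. The nearest other locus of the table, at Gng12, was 5530 kb away.

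The sequence around the Sh2d6 peak was not analysed here. A RefSeq promoter window of Sh2d6 (GRCm38.p6, chr6:72519987-72520286, minus strand, 250 bases before to 50 after the start of a transcript), which lies inside the RefSeq gene and not at its outermost 5′ end, is shown because it holds 2 matches to the core motif, on opposite strands, although no interval was called there. The capitals mark the matches to TGACNNNGC on either strand.
Sh2d6 promoter: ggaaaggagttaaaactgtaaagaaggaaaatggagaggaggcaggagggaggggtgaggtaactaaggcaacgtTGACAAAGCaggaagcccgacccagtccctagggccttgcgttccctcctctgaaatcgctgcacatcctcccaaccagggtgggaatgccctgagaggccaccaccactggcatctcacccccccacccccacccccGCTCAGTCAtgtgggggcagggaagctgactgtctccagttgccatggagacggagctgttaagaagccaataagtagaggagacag
The first match, TGACAAAGC, began 175 bp upstream of the start, and the other, GCTCAGTCA, which matches on the opposite strand, began 37 bp upstream. The nearest called interval was 7252 bp from this start. Of 32851 RefSeq promoter windows of the same length, 12.4% held at least 1 match, so a match alone is not rare. The share with at least 2 matches, as in the window shown, is not given here. The windows of Slc22a12, Snx29 (2 starts) and Frmd8, a gene that shares the Neat1 locus, held none, which says only that these letters are not in those windows. Those of Neat1, Reep3 and Gm9783 were not analysed here.

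Neat1 was the only one of the 5 with several active regions. It is a long noncoding RNA that forms the scaffold of paraspeckles, nuclear bodies that hold back RNA and RNA-binding proteins. Its mean height over 3 regions was 9.67 in Nrf2KO, 21.7 in wild-type and 82.3 in Keap1KO, which are sums of 29, 65 and 247. The highest single region reached 117 in Keap1KO, and the remaining pair averaged 65, so the regions were unequal, but the table does not say which was the highest. The same regions were listed under Gm9783 and Frmd8, so this height belongs to the neighbourhood and cannot be divided among the 3 genes. Frmd8 encodes a FERM-domain protein that binds iRhoms, the partners of the shedding protease ADAM17.

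Intervals at Neat1 (GeneID 66961, chromosome 19, minus strand, 5842302 to 5845478) lay on both sides of its start. Keap1KO was called 4858 and 2682 bp upstream, at positions 5850336 and 5848160. Wild-type was called near both, 4762 and 2746 bp upstream, at positions 5850240 and 5848224. The remaining Keap1KO interval, at position 5841808, lay 3670 bp from the start and was listed as downstream of the gene, with no wild-type call. The table gives Neat1 a length of 3176 bp, while RefSeq gives 20773 bp (5824708 to 5845480), so this interval falls inside the longer RefSeq gene. The farthest upstream Keap1KO interval was 638 bp from the 3′ end of Frmd8. The table held 38 loci with at least 3 regions, and the Neat1 locus had the highest Keap1KO mean height of these.

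Slc22a12 and Reep3 were tall in Keap1KO and low in the other libraries. Slc22a12 encodes URAT1, the urate transporter best known from the kidney proximal tubule. Its height was 5 in Nrf2KO, 7 in wild-type and 71 in Keap1KO. The interval lay 3186 bp upstream of the gene (GeneID 20521, chromosome 19, minus strand, 6535854 to 6543070), at position 6546256, between Slc22a12 and the lncRNA Gm32245, 20864 bp farther on. Reep3 encodes a membrane-shaping protein that keeps the endoplasmic reticulum off chromosomes in mitosis. Its height was 5 in Nrf2KO, 8 in wild-type and 68 in Keap1KO. The interval lay inside the gene (GeneID 28193, chromosome 10, minus strand, 67009189 to 67096988), 70908 bp from its start at position 67026080, and inside the RefSeq lncRNA Gm31763 too. No other locus of the table lay within 1 Mb of it. Neither gene had a called interval in wild-type, and both wild-type heights were within 3 units of Nrf2KO.

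Snx29 had the same Keap1KO height as Reep3 with a much higher wild-type signal. It encodes a sorting nexin, one of a family of proteins that bind membrane phosphoinositides through a PX domain. Its height was 6 in Nrf2KO, 18 in wild-type and 68 in Keap1KO. It was called in both wild-type and Keap1KO, at positions 11456448 and 11456480 on chromosome 16, again 32 bp apart. The site was 30.9% of the way into the gene (GeneID 74478, plus strand, 11322904 to 11755473), 133544 bp from its start, and only 84 of the 1460 loci lay farther from a listed start. Whether it or the Reep3 site is in an exon or an intron is not stated in the table.

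**Figure D1:**
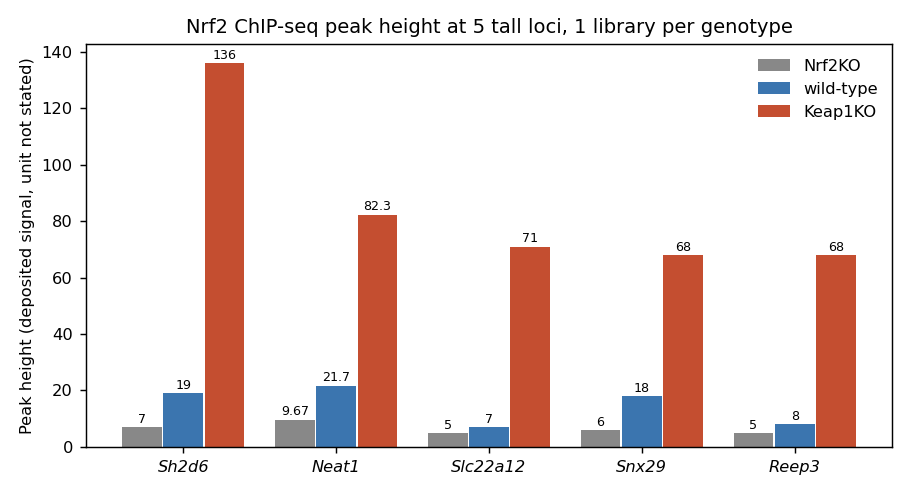
Peak height (deposited signal, no unit stated) at the 5 loci in the Nrf2KO, wild-type and Keap1KO libraries, 1 bar per library and no error bars, since each genotype has 1 library. Keap1KO bars run from 68 to 136, while wild-type bars stand at 18 to 21.7 for Sh2d6, Neat1 and Snx29 and at 7 and 8 for Slc22a12 and Reep3.

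**Figure D2:**
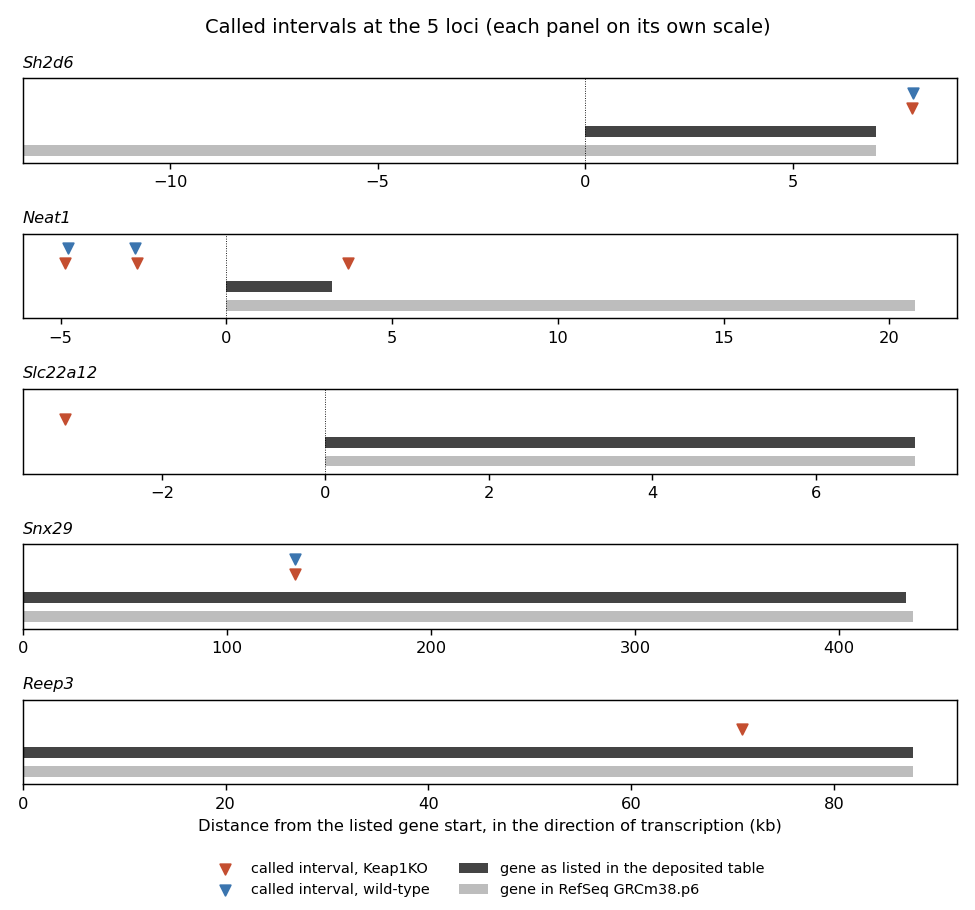
Called intervals (triangles) against distance in kb from the listed gene start, in the direction of transcription, with the gene as listed in the deposited table (dark bar) and in RefSeq (light bar), each panel on its own scale. The Sh2d6 intervals lie past the gene's end, those of Snx29 and Reep3 deep inside the gene, and the Neat1 interval listed as downstream lies inside the longer RefSeq gene.

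The comparison of wild-type with Nrf2KO asks how much Nrf2 signal is there with Keap1 present, and neither library was used to choose the 5 genes. Wild-type had the larger value at all 5, against 53.8% of all loci. It also did at all 14 other loci at least as tall in Keap1KO as the lowest of the 5. The excess was 12 units of height at Sh2d6, at Neat1 and at Snx29, 3 at Reep3 and 2 at Slc22a12. With 1 library per genotype, the small differences at Reep3 and Slc22a12 cannot be ordered. On the log2 scale with a pseudocount of 1, which understates the ratio of low heights, it was 1.44 at Snx29, 1.32 at Sh2d6, 1.09 at Neat1, 0.58 at Reep3 and 0.42 at Slc22a12. The median of the 5 was 1.09, beside 0.19 over all loci. At least 2-fold higher were 3 of the 5, against 18.8% of loci, and Neat1 fell under that size with a pseudocount of 5 (0.86) and with the libraries scaled to 1 median (0.92).

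The same 3 genes were those called in wild-type, where 3.77% of loci were called (55 of 1460). A call selects wild-type heights upwards, so the calls and the ratios are not separate evidence. In wild-type Neat1 ranked 4th, Sh2d6 10th and Snx29 11th (the last tied), while 67.2% of loci were lower than Slc22a12 and 77.6% lower than Reep3. In Nrf2KO the heights of Sh2d6, Snx29, Slc22a12 and Reep3 were 5 to 7, too close to order. Neat1 had the highest value of the 5 in this antibody background, 9.67, where 90.8% of loci were lower, against 51.3% for Slc22a12 and Reep3. How far that background adds to the Neat1 height in the other libraries was not tested. With 1 library per genotype, heights a few units apart, such as 7 and 8 or 5 and 6, cannot be ordered.

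**Figure D3:**
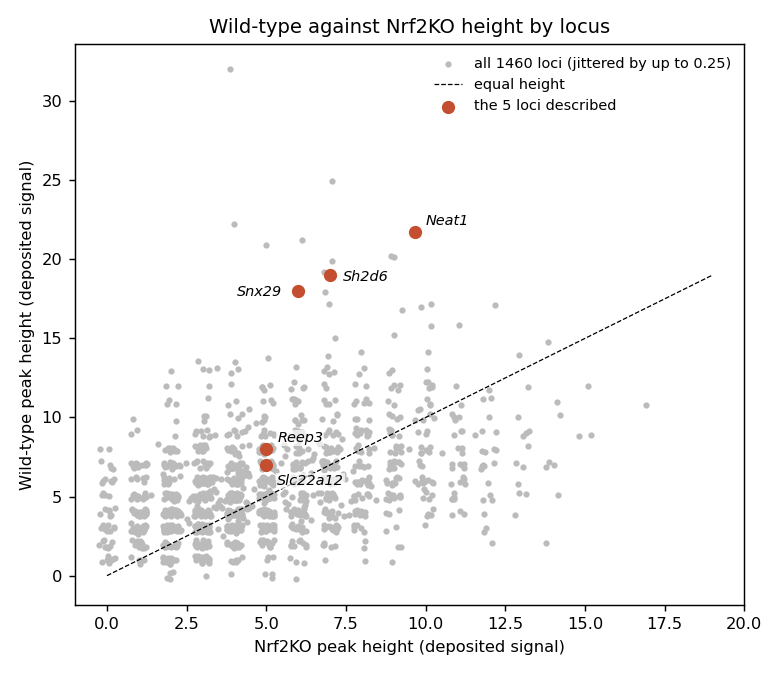
Wild-type height against Nrf2KO height (deposited signal) for 1460 loci, jittered by up to 0.25, with the 5 loci in red and the dashed line at equal height. Neat1, Sh2d6 and Snx29 stand 12 units above their Nrf2KO height, while Reep3 and Slc22a12 lie 3 and 2 units above it, among most loci.

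The ratios to Keap1KO use the height by which the genes were picked, and are given as a description. Keap1KO over wild-type was 3.17 at Slc22a12, 2.94 at Reep3, 2.78 at Sh2d6, 1.88 at Neat1 and 1.86 at Snx29 (log2), or from 9-fold down to 3.63-fold. All 5 were at least 2-fold higher in Keap1KO, as were 88.0% of loci, but 2 of the 5 and 11.2% of loci were so with the libraries scaled to 1 median. The median of all loci was 1.74, so Neat1 and Snx29 stood 0.14 and 0.12 above it, and Slc22a12, Reep3 and Sh2d6 stood 1.43, 1.20 and 1.04 above it. With the libraries scaled to 1 median, that is, multiplied so that their median heights were equal, the median of all loci became 0.07, with Neat1 at 0.08 and Snx29 at 0.07. Keap1KO over Nrf2KO was 4.10 at Sh2d6, 3.58 at Slc22a12, 3.52 at Reep3, 3.30 at Snx29 and 2.97 at Neat1. All 5 were at least 2-fold higher there, as were 85.3% of loci, and 4 of the 5 and 19.5% of loci were so with the same scaling. The comparisons share libraries and are not independent of each other.

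By mean Keap1KO height over regions the 5 ranked 3rd (Sh2d6), 12th (Neat1), 16th (Slc22a12, tied with Cat) and 18th (Snx29 and Reep3, tied). The last values inside the choice were thus 68, and the loci just below included those of Gsta4 (67) and of Trim56 (64). Next above were Slc22a12, Cat, the gene of catalase (71), and Txnrd1, the gene of thioredoxin reductase, shared with Eid3 (77). Of the 14 other loci at least as tall as Reep3 and Snx29, 12 were listed under a gene of a list of 50 classical Nrf2 pathway genes, and the others were Cat and Gpi1. Besides Txn1, Srxn1 and Txnrd1 those were Ftl1 (ferritin light chain, 118), Nqo1 (a quinone reductase, 105), Prdx1 (a peroxiredoxin, 103), Gstp1 (a glutathione transferase, 89), Tkt (transketolase, 89), Osgin1 (87), Aox1 (an aldehyde oxidase, 86), Cbr3 (a carbonyl reductase, 81) and Nfe2l2 itself (78). The pathway list was chosen with earlier results of these data known, so the count of 12 is a description.

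Over those 14 loci the wild-type and Nrf2KO medians were 15 and 6.5, against 18 and 6 over the 5. Wild-type over Nrf2KO had a median log2 ratio of 1.09 in both sets. Of the 14, 7 were called in wild-type and 10 were at least 2-fold above Nrf2KO.

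**Figure D4:**
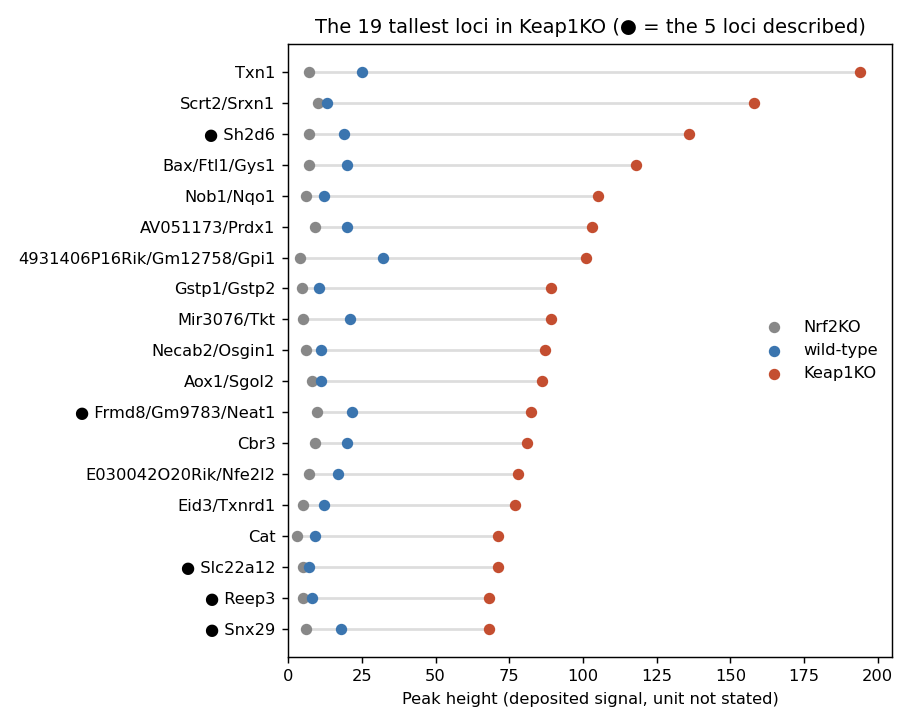
Height (deposited signal) in the Nrf2KO, wild-type and Keap1KO libraries at the 19 loci of at least 68 in Keap1KO, 1 point per library, with the 5 loci marked by a dot before the name. They are spread through the order, at 136, 82.3, 71, 68 and 68, and the remaining 14 include 12 loci of the pathway list.

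The place of the peak was not used directly in the choice, but genes with a classical antioxidant role were left out of it. Pathway list loci, which were 12 of the 14 other tall loci, lay within 1 kb of a listed gene start in 58.5% of cases. None of the 5 lay within 1 kb of a listed gene start, where 31.1% of all loci lay, while 10 of the 14 other tall loci did. The distance to the nearest listed start was 2537 bp at the Neat1 locus (from Gm9783), 3186 bp at Slc22a12, 7866 bp at Sh2d6, 70908 bp at Reep3 and 133544 bp at Snx29. The median was 7870 bp for the 5, 384 bp for the 14 and 6110 bp for all loci. Among the 14, the peaks of Txn1, Nqo1 and Prdx1 were promoter sites within 1 kb of the start. With 5 chosen loci this is a description and was given no test. Of the 5, 4 were listed under a single gene, against 3 of the 14 and 72.4% of all loci. The nearest start was taken over all genes of a locus, which can only shorten the distance where several are listed.

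**Figure D5:**
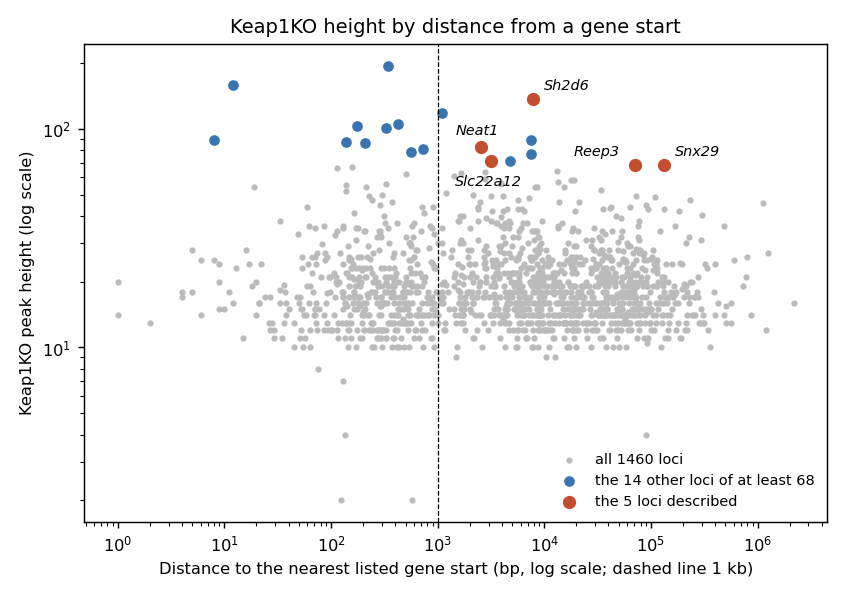
Keap1KO height (log scale) against distance in bp to the nearest listed gene start (log scale) for 1460 loci, with the 5 loci in red, the 14 other loci of at least 68 in blue and a dashed line at 1 kb. The 5 loci lie from 2537 to 133544 bp from a start, all right of the line, and 10 of the 14 lie left of it.

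Where both genotypes were called, the sites lay close together. Only pairs at most 704 bp apart, the largest merging distance, were counted, so their closeness is partly set by construction. The 4 wild-type intervals at these loci lay 32 (Sh2d6), 32 (Snx29), 64 and 96 bp (Neat1) from the nearest Keap1KO interval. Their median of 48 bp was close to that of the 39 pairs at other loci, 56 bp (0 to 704).

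The loci most like each of the 5 were found by distance over log2(height + 1) in the 3 libraries. Sh2d6 was closest to the loci of Ftl1 (distance 0.22), Prdx1 (0.52) and Txn1 (0.63), and Neat1 to those of Cbr3 (0.15), Prdx1 (0.35) and Nfe2l2 (0.54). Snx29 was closest to Nfe2l2 (0.29), Acyp2 (0.33) and Tkt (0.49). Slc22a12 and Reep3 were each other's closest locus (0.18), followed for both by Epb4.1 (0.26 and 0.38) and a locus shared by Adck4 and Numbl (0.43 and 0.31). The measure rests on 3 libraries and includes the Keap1KO height by which the genes were picked, and most other loci of such height are pathway loci, so nothing is drawn from which genes came closest.

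Relatives of the 5 genes were looked up by family. For scale, 7.67% of 21900 RefSeq protein-coding genes had a row in the table, and 41 of the 50 pathway genes did, with a median Nrf2KO height of 4.5, a wild-type one of 8.67 and a Keap1KO one of 36. All lists were chosen with earlier results of these data known, so their shares are a description. Apart from the pathway list, each holds a gene of the 5, so a row in it was fixed in advance. Of 30 sorting nexin genes, 4 had a row. Besides Snx29 these were Snx24 (27 in Keap1KO), Snx9 (18) and Snx10 (12), each at 5 to 7 in wild-type and without a wild-type call. Of 19 genes of the Slc22 family of organic ion transporters, 3 had a row, with Slc22a4, a carrier of ergothioneine and carnitine, at 30 in Keap1KO and Slc22a23 at 20. Of 9 genes named Sh2d, Sh2d5 (27) was the other one, at a locus shared with Hp1bp3.

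Reep3 was the single one of 6 Reep genes with a row. Slc22a12 was the single one of 12 genes of urate transport and metabolism, and Neat1 the single one of 15 paraspeckle genes, which included Nono, Sfpq and Pspc1, the core paraspeckle proteins, and the neighbouring lncRNA Malat1. A gene without a row had no called interval listed in or near it, and intervals far from genes are not analysed here.

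On chromosome 19, Neat1 and Slc22a12 lay within 1 Mb of each other, and each had 6 loci in that distance, the other of the pair included. The nearest locus to Neat1, shared by Dpf2, Slc25a45 and Tigd3, was 42.0 kb away with 14 in Keap1KO, and the nearest to Slc22a12, at Macrod1, was 509 kb away with 26. The nearest to Snx29, shared by Gspt1 and Mir1945, was 193 kb away with 23.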

How the data were processed

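Nrf2 ChIP-seq was measured in mouse esophagus with 1 library for each of 3 genotypes. Per the submitters' processing notes, the tools and build include BWA, MACS2 2.1.0 and mm10, with no parameters given. Per the file headers, the deposited signal is an average peak height per gene with a flag for a called interval; depth is unknown. In the 1681 genes with 1 region all heights were whole numbers.

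From it, 1727 intervals were placed by gene start, strand and distance, merged to 1684 regions (at most 704 bp apart), and heights solved by least squares for 1460 loci (largest residual 0.00186), a step tested on simulated data. Ratios are log2 with a pseudocount of 1. No test was run. The members and lists were chosen with earlier results of these data known. The named genes were the 5, genes sharing their intervals, the 3 most similar loci, the 3 loci on each side of the lowest height, tall pathway loci and listed family genes. A locus named by this rule is not reported here. Gpi1, the RefSeq neighbours and the nearest other loci were named after values were seen. Names and promoters came from RefSeq GRCm38.p6. Alternatives were pseudocounts of 0.5 and 5, median scaling, a height filter, values per gene row, loci over 1 kb from a start, and calls by height of at least 12. Python 3.11.15, numpy 2.4.6 and pandas 2.3.3 were used.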

Additional observations from a re-analysis of the deposited data

How the results depend on the processing

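No paired analysis was possible because there is a single library of each genotype, and none could be left out. The alternative with 4 single-region genes was chosen after seeing the data. Of 97 values under an alternative, none changed sign, which was fixed in advance for every pseudocount, rank and count. Of those on the 5 loci, 49 stayed within 1.5-fold and 24 did not. Of those on all loci, 20 did and 4 did not. These tallies include ranks and 2-fold counts under settings that change how many loci are counted, which moves them too. Depth is unknown, which limits every ratio given.

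With the libraries scaled to 1 median, Keap1KO over wild-type was 0.97 at Sh2d6, 0.08 at Neat1, 1.43 at Slc22a12, 0.07 at Snx29 and 1.19 at Reep3 (median 0.97), and Keap1KO over Nrf2KO was 2.15, 1.00, 1.68, 1.38 and 1.62 (median 1.62). This scaling sets the median loci equal by construction. A pseudocount of 5 shrinks ratios by construction, with Keap1KO over Nrf2KO at 2.93 for Slc22a12 and 2.87 for Reep3 (median 2.87). Wild-type over Nrf2KO at the 5 loci stayed within 1.5-fold under every alternative tried for it, with medians from 0.86 to 1.12. Over all loci its 2-fold count went from 274 to 58 with a pseudocount of 5. The height filter gave 120, but it removes the lower loci from the count, so 120 cannot be set against 274. The median log2 ratio was 0.19 with and without this filter.

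Counted per gene row, where shared loci count repeatedly, Neat1 ranked 22nd, Slc22a12 30th and Snx29 and Reep3 32nd by Keap1KO height. Among loci more than 1 kb from a start Sh2d6 ranked 1st, Neat1 4th, Slc22a12 6th and Snx29 and Reep3 8th.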

Other observations

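The RefSeq annotation moved the Neat1 interval listed as downstream into the gene, and this was not rare in the table. Of 1090 pairs of a gene and an interval listed outside it, 107 (9.82%) lay inside the gene by its RefSeq ends, over 1878 gene rows matched by identifier and chromosome. A gene at least 2 times longer in RefSeq than in the table, as Neat1 and Sh2d6 were, was found in 56 of these rows (2.98%).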
